A study of Mus musculus with 4 samples.

Results

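A family of 4 related genes was followed here: Tsc22d3, which encodes the glucocorticoid-induced leucine zipper protein GILZ, and its relatives Tsc22d1, Tsc22d2 and Tsc22d4. They were taken from the count table by gene symbol, and each matched exactly 1 row, so the family is 4 of 23282 genes. The cells were C2C12 myotubes, the fused muscle fibres formed by a mouse myoblast line that the labels give as female, kept without steroids before treatment. Treatment lasted 2 h, with vehicle in 2 libraries and with the synthetic glucocorticoid dexamethasone at 1 µM in 2 libraries, and the RNA sequenced was that still attached to chromatin, which is enriched for transcripts in the making. All groups are the same single cell line, so the libraries represent no set of animals, and the labels do not say whether they came from separate cultures. The p-values therefore measure the spread between these libraries only, which may be technical.

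Proteins of the TSC22 family share a short conserved region, the TSC box, followed by a leucine zipper through which they pair with themselves and with each other. GILZ is among the best known products of glucocorticoid action: the activated receptor drives its gene directly, and the protein binds and restrains NF-kappaB, AP-1 and Ras signalling, which ties it to the anti-inflammatory effects of these hormones. Its relatives have other histories. TSC22D1 was found as a gene switched on by TGF-beta, and the long forms of TSC22D1, TSC22D2 and TSC22D4 work with the pseudokinase NRBP1 and the WNK kinases in the response to cell volume. In muscle, the long form of GILZ has been described to bind MyoD together with the deacetylase HDAC1 and to hold back myogenic genes.

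The kinship of the 4 genes is visible in their conserved coding sequence, which also bears on how far their reads could be mistaken for each other. The 40 codons most alike in all members are shown from GENCODE M21 transcripts (GRCm38), with capitals marking the 73 of 120 bases that are the same in all 4; the genes lie on chromosomes 14, 3, X and 5 in the order shown.
Tsc22d1: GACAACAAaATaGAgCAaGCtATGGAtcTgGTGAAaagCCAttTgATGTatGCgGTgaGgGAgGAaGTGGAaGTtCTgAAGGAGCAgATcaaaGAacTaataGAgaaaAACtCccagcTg
Tsc22d2: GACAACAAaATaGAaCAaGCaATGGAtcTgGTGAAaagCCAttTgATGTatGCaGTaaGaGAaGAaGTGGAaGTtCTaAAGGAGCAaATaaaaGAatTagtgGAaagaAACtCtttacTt
Tsc22d3: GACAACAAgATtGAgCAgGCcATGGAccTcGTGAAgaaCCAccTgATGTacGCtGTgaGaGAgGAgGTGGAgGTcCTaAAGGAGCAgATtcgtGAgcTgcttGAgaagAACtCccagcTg
Tsc22d4: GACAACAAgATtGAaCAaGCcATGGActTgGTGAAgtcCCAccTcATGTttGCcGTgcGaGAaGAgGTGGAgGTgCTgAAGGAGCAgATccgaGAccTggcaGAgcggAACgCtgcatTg
In this stretch Tsc22d1 shared 94 of 120 bases with Tsc22d3, Tsc22d4 shared 92 and Tsc22d2 shared 84. By encoded amino acid the order was another, with 37 of 40 codons the same for Tsc22d1, 35 for Tsc22d2 and 33 for Tsc22d4. Over whole annotated transcripts the longest identical run was 32 bases, between Tsc22d1 and Tsc22d2. Tsc22d3 had no identical run longer than 16 bases with any relative, and those 16 bases were shared with Tsc22d1. Introns were not compared. The read length and the handling of reads that match several genes are not given in the sources used here. No other gene of that annotation overlaps a member on either strand.

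Starts of Tsc22d3 given by RefSeq are shown next because this gene had by far the largest difference of the 4. RefSeq promoter windows (GRCm38.p6), each running from 250 bases before a transcript start to 50 after it, were at hand for 3 starts of Tsc22d3 and 5 of Tsc22d1; Tsc22d2 and Tsc22d4 were not matched. The hexamer AGAACA, which makes up each arm of the glucocorticoid receptor's element, was searched on both strands, and the match, here as its reverse complement, is in capitals.
Tsc22d3, chrX:140600473-140600772, minus strand: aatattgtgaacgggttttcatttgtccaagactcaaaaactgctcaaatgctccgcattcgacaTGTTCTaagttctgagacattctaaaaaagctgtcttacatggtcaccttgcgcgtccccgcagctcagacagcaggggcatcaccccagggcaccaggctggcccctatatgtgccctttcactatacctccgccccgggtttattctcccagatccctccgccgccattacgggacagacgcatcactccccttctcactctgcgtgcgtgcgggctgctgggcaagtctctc
Tsc22d3, chrX:140542619-140542918, minus strand: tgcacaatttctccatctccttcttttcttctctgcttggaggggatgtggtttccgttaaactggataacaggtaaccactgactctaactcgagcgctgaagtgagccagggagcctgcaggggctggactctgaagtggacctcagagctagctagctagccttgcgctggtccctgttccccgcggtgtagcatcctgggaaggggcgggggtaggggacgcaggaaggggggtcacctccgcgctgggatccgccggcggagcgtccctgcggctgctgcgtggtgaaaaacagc
The other window is printed for comparison, since the GENCODE M21 transcript Tsc22d3-202 starts there. No transcript of that annotation starts within 100 bases of the start in the first printed window. Of the 3 Tsc22d3 windows the first printed one held the hexamer, beginning at position -185 from the start, and of the 5 Tsc22d1 windows 1 held it. Among all 32851 windows of this length 19.0% held it, so its presence is common. The paired form, a degenerate palindromic glucocorticoid response element that reads the same on both strands and can overlap the hexamer, was in none of the 8 windows and in 0.475% of all windows. The string GTAAACA, searched on both strands and bound by forkhead factors such as FoxO proteins, was in none of the 8 and in 3.65% of all. Such matches describe letters in a window of 300 bases. The counts are per gene, so which start was used cannot be told apart.

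The libraries held 19631435 to 88596296 counts, the largest being dexamethasone replicate 2. Summed over 12 myotube markers such as Ttn, Myh3 and Myog, the level was 129734 and 45980 CPM (the count of a gene per 1000000 counts of its library, with library sizes scaled by TMM) in vehicle replicates 1 and 2, and 125128 and 44912 in dexamethasone replicates 1 and 2. Most of this sum was Ttn, at 118127 and 41070 CPM with vehicle and 113355 and 39943 CPM with dexamethasone. The sum therefore differed by replicate number and lay close together between the groups. Most other markers also differed by replicate number, such as Myog (263 and 126 CPM with vehicle, 293 and 151 with dexamethasone). Mymk did not, at 176 and 173 CPM with vehicle and 208 in both dexamethasone libraries. None of the 12 was at 0. Markers of proliferating myoblasts, 7 of 7 detected, summed to 57.5 and 62.0 CPM with vehicle and to 42.9 and 50.8 CPM with dexamethasone. That sum was lower with dexamethasone through Pax7, a gene of muscle stem cells singled out after its values were seen (log2 fold change -0.80, SE 0.201, edgeR adjusted p 0.456), whereas the other 6 had fold changes above 0 on the log2 scale. Its part in the results below was not tested. Adipocyte markers, 5 in all with 1 at 0 throughout, stayed at or below 0.211 CPM in sum, and osteoblast markers, 4 with 1 at 0, at or below 0.767. Blood and immune markers, 5 with 1 at 0, summed to between 2.98 and 3.94 CPM. In such bulk libraries fewer nuclei of a kind and less RNA per nucleus cannot be told apart.

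Tsc22d3 (ENSMUSG00000031431) was read 1222 and 1244 times in vehicle replicates 1 and 2, and 12142 and 22383 times in dexamethasone replicates 1 and 2. On the CPM scale its levels were 65.6 and 32.8 with vehicle and 405 and 240 with dexamethasone. The lower dexamethasone library thus stood well above the higher vehicle library, and the groups did not overlap. Group means were 49.2 ± 23.2 CPM (SD, n = 2) and 322 ± 117 CPM (SD, n = 2). The log2 fold change was 2.72 (SE 0.455), a 6.57-fold higher level. This was the 38th largest of 13285 genes tested, where 77 genes (0.580%) reached a log2 fold change of 2.

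Even so, Tsc22d3 did not pass the threshold of 0.05 in edgeR's quasi-likelihood test over all genes (unadjusted p 0.00258, Benjamini-Hochberg adjusted p 0.213). That test called 5 of 13285 genes higher (0.0376%) and 0 lower (0%). Before adjustment 543 genes (4.09%) were higher and 225 (1.69%) lower at a p under 0.05, and DESeq2 called 235 higher (1.77%) and 53 lower (0.399%). None of the 4 family members was among the edgeR calls. Tsc22d3 was called by the Wald test of DESeq2 (adjusted p 4.08e-09). It was also called by the likelihood ratio test of edgeR (adjusted p 2.72e-06), which put 1.83% of genes higher and 0.339% lower. Over all alternatives its adjusted p ran from 4.08e-09 to 0.234. Its log2 fold change stayed between 2.30 and 3.30 when any 1 library was left out, lowest without dexamethasone replicate 1 and highest without vehicle replicate 1. The edgeR test was passed without vehicle replicate 2 (adjusted p 0.0254) and without dexamethasone replicate 2 (adjusted p 0.0393), and not without vehicle replicate 1 (0.0542) or dexamethasone replicate 1 (0.105).

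**Figure D1:**
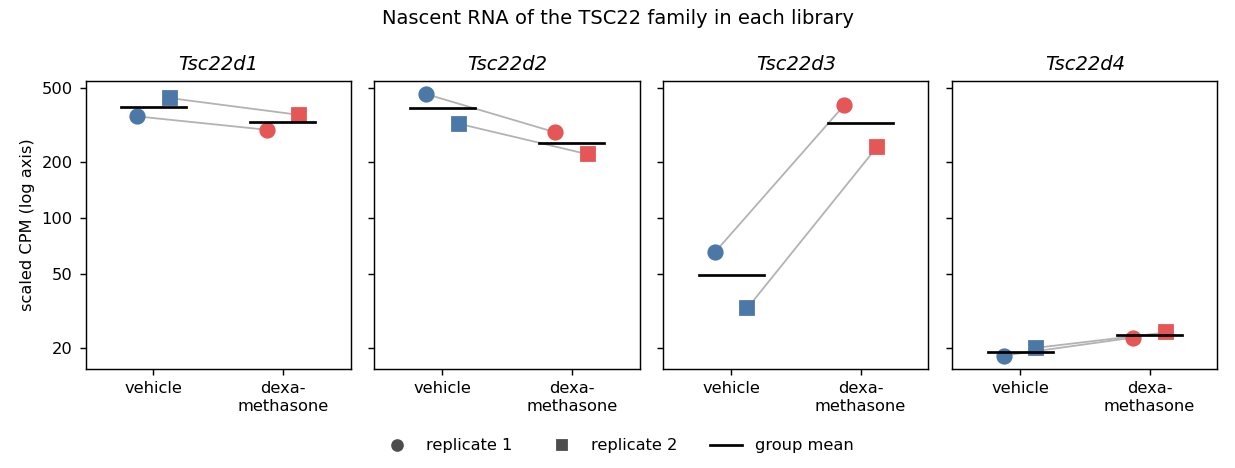
Level of each TSC22 family gene in the 4 libraries, in CPM scaled by TMM on a log axis, with circles for replicate 1, squares for replicate 2, black bars for group means and grey lines joining libraries with the same number. Tsc22d3 goes from 65.6 and 32.8 with vehicle to 405 and 240 with dexamethasone; Tsc22d2 goes from 463 and 321 to 288 and 220.

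The spread that widened the error of Tsc22d3 followed the replicate number. Replicate 1 exceeded replicate 2 by 1.00 on the log2 scale with vehicle and by 0.76 with dexamethasone, gaps larger than those of 90.1% and 86.7% of 13275 genes with counts in every library. The myotube marker sum, given above and made up mostly of Ttn, was also higher in replicate 1 of both groups. Its part in the gap was not tested. Between libraries with the same number the difference was of like size: the log2 ratio of dexamethasone to vehicle was 2.63 for the libraries numbered 1 and 2.87 for those numbered 2. Each such ratio rests on a single pair of libraries and carries no test.

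The relatives differed less between the groups, and none passed the main test. In a fit with replicate number as a block, given at the end, Tsc22d2 and Tsc22d1 passed and Tsc22d4 did not. That fit leaves 1 residual degree of freedom, and the labels do not say what a replicate number marks. Tsc22d2 (ENSMUSG00000027806), a partner of NRBP1 and WNK kinases, was read 8631, 12185, 8641 and 20526 times in vehicle 1, vehicle 2, dexamethasone 1 and dexamethasone 2. Its levels were 463 and 321 CPM with vehicle and 288 and 220 CPM with dexamethasone, so both dexamethasone libraries lay below both vehicle libraries. The means were 392 ± 100.3 and 254 ± 48.4 CPM (SD, n = 2 each). On the log2 scale the fitted difference was -0.63 (SE 0.248, edgeR adjusted p 0.901). Between libraries with the same number the log2 ratio was -0.68 and -0.55.

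Tsc22d1 (ENSMUSG00000022010), the founding TGF-beta-stimulated gene, was read 6550, 16734, 8927 and 33444 times in the same order. Its levels were 351 and 441 CPM with vehicle and 298 and 358 CPM with dexamethasone. Here dexamethasone replicate 2 exceeded vehicle replicate 1, so the groups overlapped. The log2 fold change was -0.27 (SE 0.183, edgeR adjusted p 1.00). Libraries with the same number gave log2 ratios of -0.24 and -0.30, both below 0.

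Tsc22d4 (ENSMUSG00000029723) was read 339, 760, 681 and 2260 times. Its levels were 18.2 and 20.03 CPM with vehicle and 22.7 and 24.2 CPM with dexamethasone, a narrow separation without overlap. The log2 fold change was 0.30 (SE 0.149, edgeR adjusted p 1.00). In the family as a whole, 2 genes, Tsc22d3 and Tsc22d4, were higher in each dexamethasone library than in either vehicle library, a separation that 15.0% of all tested genes showed. The reverse separation was seen in 1, Tsc22d2, and in 12.9% of tested genes. The direction of each member's fold change was the same under each of the 4 scalings tried. For scale, the median log2 fold change of all tested genes was -0.0016.

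**Figure D2:**
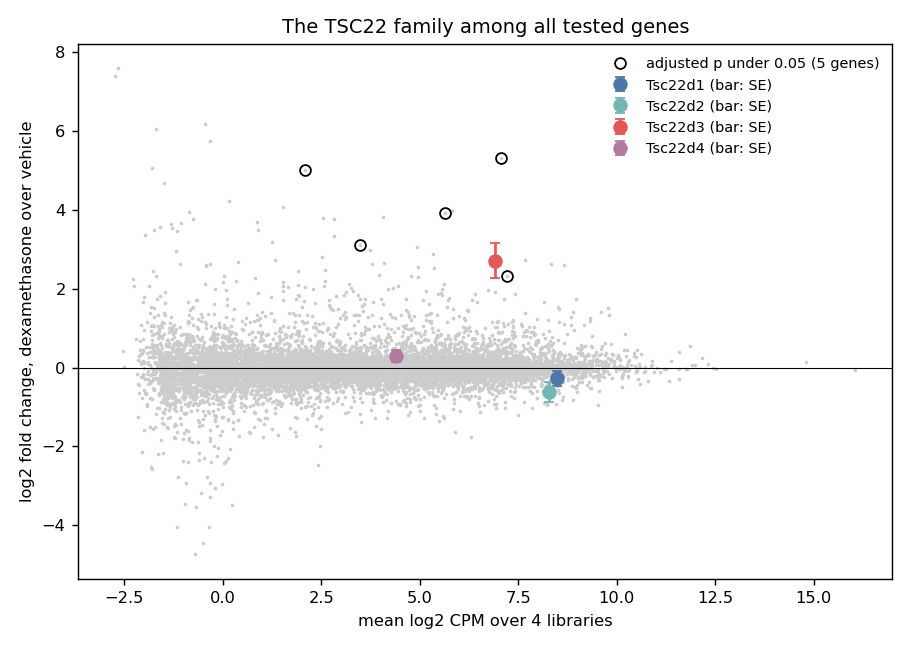
Log2 fold change of dexamethasone over vehicle against the mean log2 CPM of the 4 libraries for all 13285 tested genes (grey), with the 4 family members in colour (bars are SE) and open circles for the 5 genes with an adjusted p under 0.05. Tsc22d3 at 2.72 stands above the cloud of genes of its abundance, and its relatives at -0.27, -0.63 and 0.30 lie within it.

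A comparison inside each library needs no scaling, so Tsc22d3 was next set against each relative as a log2 ratio of counts. Against Tsc22d2 the ratio was -2.82 and -3.29 with vehicle and 0.49 and 0.12 with dexamethasone. Tsc22d3 thus went from far fewer counts than Tsc22d2 to slightly more in both dexamethasone libraries. The means were -3.06 ± 0.33 and 0.31 ± 0.26 (SD, n = 2 each), a difference of 3.36. Against Tsc22d1 the difference was 3.02, from -3.09 ± 0.94 to -0.07 ± 0.72 (SD, n = 2 each). Against Tsc22d4 it was 2.45, from 1.28 ± 0.81 to 3.73 ± 0.60 (SD, n = 2 each). In none of the 3 comparisons did the groups overlap, and each exact two-sided permutation test over the 4 libraries gave p = 0.333, the smallest value that 2 against 2 allows. The spread was narrowest against Tsc22d2, the relative that was also higher in replicate 1 in both groups (by 0.53 and 0.39 on the log2 scale).

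The make-up of the family followed. Tsc22d3 held 7.30% of the family's counts in vehicle replicate 1 (95% Wilson interval 6.91% to 7.70%) and 4.02% in vehicle replicate 2 (3.81% to 4.25%). It held 39.95% in dexamethasone replicate 1 (39.4% to 40.5%) and 28.5% in dexamethasone replicate 2 (28.2% to 28.8%). These intervals cover counting error only and are far narrower than the gaps between replicates. The mean share of Tsc22d3 was 5.66% ± 2.32 with vehicle and 34.2% ± 8.12 with dexamethasone (SD, n = 2 each; exact permutation p = 0.333, the smallest possible). Tsc22d2 went the other way, from a mean share of 45.5% ± 8.59 to 27.3% ± 1.64 (SD, n = 2 each; exact permutation p = 0.333), while the shares of Tsc22d1 and Tsc22d4 overlapped between groups (exact permutation p = 0.667 each). Since shares sum to a whole, a higher share of Tsc22d3 lowers the others by construction.

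The summed level of the family, in contrast, overlapped between groups. It was 898 and 815 CPM with vehicle and 1014 and 842 CPM with dexamethasone, means of 857 ± 58.8 and 928 ± 122 (SD, n = 2 each; exact permutation p = 0.667). The sum of the 3 relatives was 833 and 782 CPM with vehicle and 609 and 602 CPM with dexamethasone, without overlap (exact permutation p = 0.333).

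**Figure D3:**
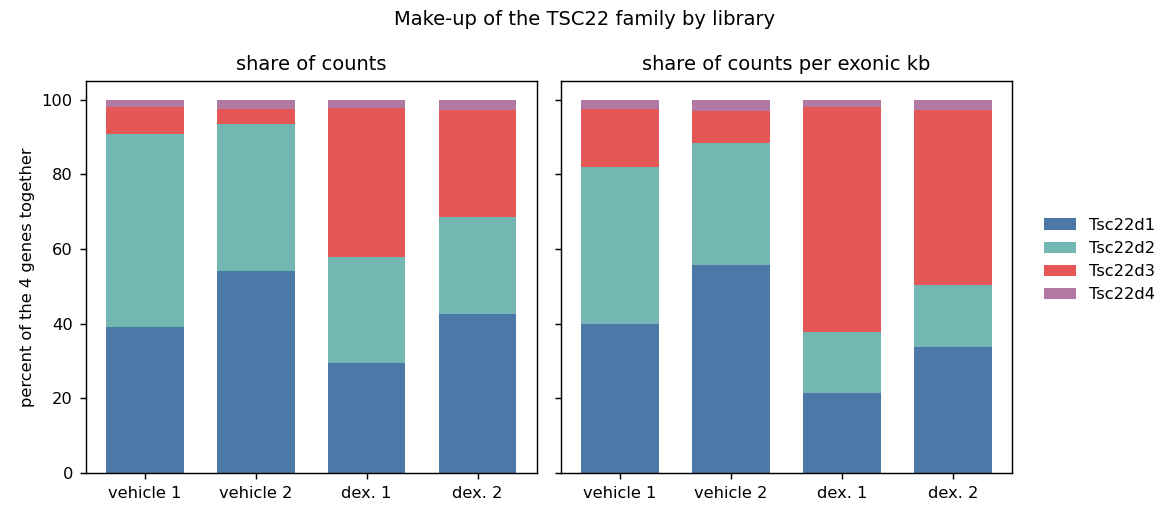
Share of each member in the summed counts of the 4 TSC22 family genes, in percent, for each library, from counts as deposited (left) and from counts per exonic kb (right). Tsc22d3 takes 7.30% and 4.02% of the counts with vehicle and 39.95% and 28.5% with dexamethasone.

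Levels of different genes can be ranked only per length, and it is not stated whether exons alone or whole genes were counted, so both lengths were used. The exons of Tsc22d1, Tsc22d2, Tsc22d3 and Tsc22d4 cover 8.99, 11.2, 4.34 and 7.51 kb, and the genes span 92.8, 52.1, 61.1 and 22.7 kb. Per exonic kb, the vehicle levels were 44.0 ± 7.05 CPM for Tsc22d1, 34.9 ± 8.92 for Tsc22d2, 11.3 ± 5.34 for Tsc22d3 and 2.54 ± 0.174 for Tsc22d4 (SD, n = 2 each). Tsc22d1 and Tsc22d2 exchanged places between the vehicle libraries and so did not differ beyond their spread. With dexamethasone Tsc22d3 came first in both libraries, at 93.3 and 55.2 CPM per exonic kb, ahead of Tsc22d1 at 33.1 and 39.8. Tsc22d2 followed at 25.6 and 19.6, and Tsc22d4 stayed last at 3.03 and 3.22.

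Per kb of gene span the order was less clear. With vehicle, Tsc22d2 led at 7.53 ± 1.93 CPM, Tsc22d1 had 4.27 ± 0.683, and Tsc22d3 (0.804 ± 0.379) and Tsc22d4 (0.841 ± 0.0574) did not differ beyond their spread (SD, n = 2 each). With dexamethasone Tsc22d3 reached 6.63 and 3.92, against 5.54 and 4.22 for Tsc22d2, so the leader differed between the libraries. On either length Tsc22d3 moved from the lower pair with vehicle to the upper pair with dexamethasone in both libraries.

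The genes with the pattern most like that of Tsc22d3 were sought by the distance between log2 CPM values, centred on each gene's mean, over the 4 libraries. This compared 10881 genes, and because the 4 libraries form only 2 groups of 2, it describes likeness in size of difference and in replicate gap. The nearest was Tent5b, which encodes a noncanonical poly(A) polymerase, at a distance of 0.107. Tent5b was read only 25 and 26 times with vehicle and 248 and 447 times with dexamethasone, a log2 fold change of 2.73 (SE 0.493). The next were Ror1, a receptor tyrosine kinase-like gene (distance 0.450), Cdh6, a cadherin (0.455), and Col11a1, a fibrillar collagen chain (0.535). Their log2 fold changes were 2.73 for Ror1, 2.89 for Cdh6 and 2.55 for Col11a1. In each of these 4 genes replicate 1 exceeded replicate 2 within both groups, as in Tsc22d3.

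The regulators of Tsc22d3 come next. The list held 6 genes, written with earlier results of these data known: the receptors Nr3c1 and Nr3c2, the FoxO factors Foxo1, Foxo3 and Foxo4, and Creb1. All 6 were tested and 0 were called in edgeR, and the median log2 fold change was -0.0013 against -0.0016 for all genes. At an unadjusted p under 0.05 in edgeR 1 was higher and 1 lower, as were 4.09% and 1.69% of all tested genes. DESeq2 also called 1 higher and 1 lower, against 1.77% and 0.399% of all tested genes. The higher gene was Foxo3, whose protein has been described to bind forkhead elements of the Tsc22d3 promoter. The string GTAAACA was in none of the windows searched above, but only 3.65% of all windows held it. Sites outside those windows of 300 bases, or with other letters, were not searched, so its absence does not bear on such binding. Foxo3 was at 202 and 244 CPM with vehicle and 658 and 592 CPM with dexamethasone. Its log2 fold change was 1.49 (SE 0.162, edgeR adjusted p 0.123). The lower was Nr3c1, the glucocorticoid receptor gene, at 238 and 180 CPM with vehicle and 121 and 83.8 CPM with dexamethasone, a log2 fold change of -1.03 (SE 0.251, edgeR adjusted p 0.430). Neither gene's groups overlapped, a separation that 15.0% of all tested genes showed upward and 12.9% downward. Between the groups, Tsc22d3 and Foxo3 were thus at a higher level with dexamethasone and the receptor gene at a lower one. Within each group the receptor gene and Tsc22d3 were both higher in replicate 1. A relation between these genes was not tested.

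Of 21 genes for binding partners of GILZ and for the signals it restrains, 20 were tested and 0 were called in edgeR, with a median log2 fold change of -0.05. At an unadjusted p under 0.05 in edgeR 1 of the 20 was higher, as were 4.09% of all tested genes. It was also the single DESeq2 call, in a test that put 1.77% of all tested genes higher. That gene was Nfkbia, which encodes the inhibitor IkappaB-alpha and is itself a glucocorticoid target. It had 34 and 80 counts with vehicle and 229 and 527 with dexamethasone, a log2 fold change of 1.74 (SE 0.278, edgeR adjusted p 0.201). Among direct partners Rela, the p65 subunit of NF-kappaB, was at 0.03 (SE 0.240). Jun of AP-1 was at 0.21 (SE 0.144), with both dexamethasone libraries above both vehicle libraries, as in 15.0% of all tested genes. Fos, the other AP-1 partner, was at -0.26 with a wide error (SE 0.532). The partners in muscle were Myod1 at -0.27 (SE 0.189) and Hdac1 at -0.15 (SE 0.256), each with overlapping groups. Between libraries with the same number the log2 ratio was -0.28 and -0.26 for Myod1 and -0.15 and -0.15 for Hdac1. Cebpb, a regulator of adipogenesis, had the next largest value at 0.53 (SE 0.203, edgeR adjusted p 0.882).

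GILZ also joins the kinase SGK1 and the ubiquitin ligase Nedd4-2 at the epithelial sodium channel. Of 5 genes of that complex 3 were tested and 0 were called in edgeR. At an unadjusted p under 0.05, 1 was higher, and 1 was called higher in DESeq2, against 4.09% and 1.77% of all tested genes. Sgk1, itself a glucocorticoid target, was at 25.1 and 21.4 CPM with vehicle and 88.4 and 81.2 CPM with dexamethasone, a log2 fold change of 1.87 (SE 0.152, edgeR adjusted p 0.117). Nedd4l, the gene of Nedd4-2, was at -0.08 (SE 0.118), and Scnn1a, a channel subunit, at 0.07 (SE 0.387). Scnn1b, another subunit, had too few counts to test: 1 and 1 with vehicle, 10 and 17 with dexamethasone.

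The WNK and NRBP pathway, in which the long TSC22 proteins act, held 11 genes, 10 of them tested. None was called in edgeR or DESeq2, and the median log2 fold change was -0.01. At an unadjusted p under 0.05 in edgeR 1 was higher, as were 4.09% of all tested genes. That gene was Slc12a7, a potassium chloride cotransporter, at 72.9 and 83.3 CPM with vehicle and 124 and 122 CPM with dexamethasone (log2 fold change 0.66, SE 0.131, edgeR adjusted p 0.302). Next in size was Slc12a2, the sodium potassium chloride cotransporter, at 0.24 (SE 0.129). Nrbp1, the gene of the partner of the long TSC22 proteins, was at 0.02 (SE 0.143), and Wnk1 at 0.21 (SE 0.299).

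Of 10 TGF-beta signalling genes, the setting in which Tsc22d1 was found, 8 were tested and 0 were called in edgeR or DESeq2, with a median of -0.01. At an unadjusted p under 0.05, where 4.09% of all tested genes were higher and 1.69% lower, edgeR had 0 higher and 2 lower here. These were the ligand genes Tgfb1, with 141 and 442 counts with vehicle and 137 and 536 with dexamethasone (log2 fold change -0.90, SE 0.293, adjusted p 0.714), and Tgfb3 (-0.58, SE 0.154, adjusted p 0.490). Smad7, the pathway's feedback inhibitor, had the largest value at -1.10 (SE 0.508) but differed by replicate number too, at 19.2 and 38.5 CPM with vehicle and 8.54 and 18.2 CPM with dexamethasone. The groups did not overlap in 6 of the 8 genes, with dexamethasone on the lower side in 4 and on the upper side in 2, separations that 12.9% and 15.0% of all tested genes showed.

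Of the 61 genes in all lists, 5 had 0 counts in every library. Map2k1, Oxsr1, Smad3 and Tgfbr2 are 4 of these, and all lie on the minus strand of chromosome 9, where 91.3% of 550 coding genes of the table are at 0 in every library, against 17.9% of 610 on its plus strand. They were therefore not read as silent. No family member lies there.

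Against 10 well-known early glucocorticoid targets Tsc22d3 ranked high in size and low in precision. All 10 were tested, each was higher in either dexamethasone library than in any vehicle library (as were 15.0% of all tested genes), and the median log2 fold change was 1.81. Fkbp5, a co-chaperone of the receptor, was called in edgeR (5.32, SE 0.263, adjusted p 0.0429). In DESeq2 8 of the 10 were called, all higher, against 1.77% of all tested genes. Only Fkbp5 and Errfi1, a feedback inhibitor of EGF receptors (3.98, SE 0.262), had a larger fold change than Tsc22d3, and Per1 of the circadian clock followed it at 2.53 (SE 0.186). The SE of Tsc22d3, 0.455, exceeded those of all 10, which ran from 0.150 for Klf9 to 0.319 for Ddit4. These genes are widely used as markers of glucocorticoid action, so their direction here is no independent finding.

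**Figure D4:**
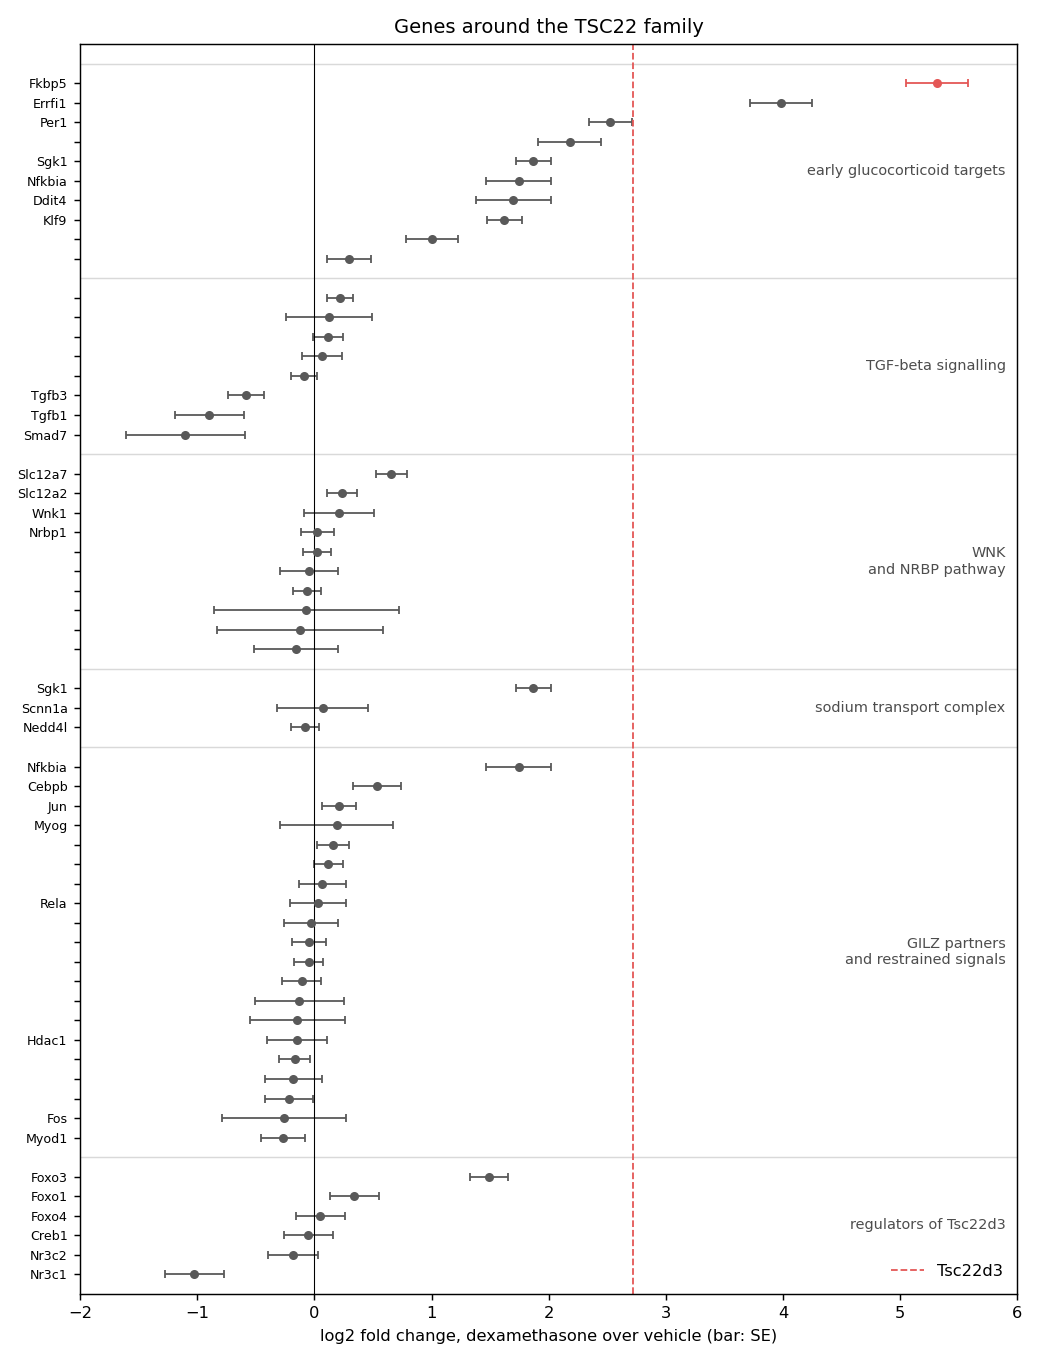
Log2 fold change of dexamethasone over vehicle (bars are SE) for the tested genes of the 6 lists, labelled where the text names them, with the dashed line at the value of Tsc22d3, 2.72, and Fkbp5, the listed gene with an adjusted p under 0.05, in red. The early glucocorticoid targets lie to the right of 0, and most genes of the other lists lie close to it.

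The genes beside each member were examined last, taking the nearest 2 rows of the table on each side in RefSeq gene order. On the X chromosome Tsc22d3 lies on the minus strand, with Prps1 on its one flank and Mid2 on the other, both on the plus strand. Mid2, which encodes a ubiquitin ligase that binds microtubules, was at 56.9 and 46.0 CPM with vehicle and 98.4 and 92.7 CPM with dexamethasone. Its groups did not overlap, with dexamethasone above, as in 15.0% of all tested genes. Its log2 fold change was 0.89 (SE 0.158, edgeR adjusted p 0.232, DESeq2 adjusted p 0.00635), where DESeq2 called 1.77% of all tested genes higher. Prps1, an enzyme of nucleotide synthesis, was at 0.56 (SE 0.371) with overlapping groups. Frmpd3 and Tex13b, one gene further out, had at most 1 count in any library.

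Near Tsc22d4 on chromosome 5, Agfg2 was at 6.65 and 9.28 CPM with vehicle and 25.1 and 25.4 CPM with dexamethasone. Its log2 fold change was 1.66 (SE 0.218, edgeR adjusted p 0.146, DESeq2 adjusted p 1.87e-06), where DESeq2 called 1.77% of all tested genes higher. Agfg2 lies on the minus strand and Tsc22d4 on the plus strand, with Nyap1 (0.89, SE 0.552, at 13 to 273 counts) between them. Thus the value of a gene 2 places away was larger than that of Tsc22d4 itself. On its other side Ppp1r35 was at -0.23 (SE 0.339) and Mepce at 0.18 (SE 0.215). Around Tsc22d1 the tested neighbours Nufip1, Gpalpp1 and Serp2 were between 0.05 and 0.19. Around Tsc22d2 the values were -0.08 for Serp1, 0.08 for Eif2a and -1.08 for Pfn2 (SE 0.583).

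**Figure D5:**
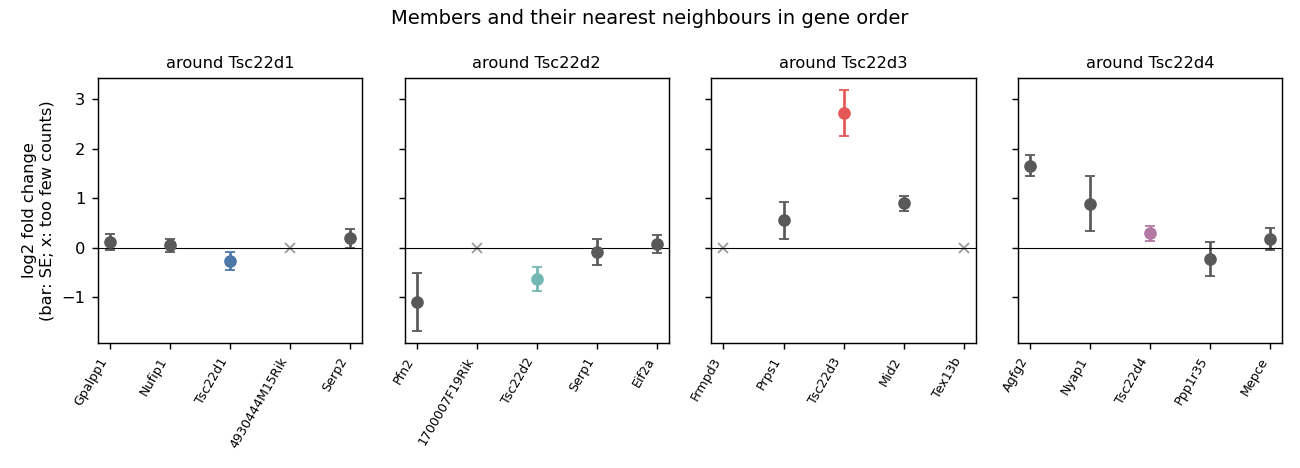
Log2 fold change of dexamethasone over vehicle (bars are SE) for each family member and its nearest 2 genes on either side in gene order, with crosses for genes with too few counts to test. Tsc22d3 at 2.72 exceeds its neighbours Mid2 at 0.89 and Prps1 at 0.56, whereas Agfg2 at 1.66 exceeds Tsc22d4 at 0.30.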

How the data were processed

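RNA bound to chromatin of C2C12 myotube nuclei was sequenced, 2 vehicle and 2 dexamethasone libraries. The authors deposited raw read counts per gene in 1 table. TopHat2 2.0.13, SAMtools 1.1, HTSeq 0.6.1 and DESeq2 1.18.1 are named, with build mm9, per the submitters' processing notes, without roles or settings. Strand setting, annotation and whether introns were counted are not given in the sources used here. The labels name both a total RNA and an mRNA kit. Table columns were matched to samples by title, "Control" being taken as vehicle.

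Of 23333 rows, 51 that repeated a gene and its counts were used once. Genes passing filterByExpr (minimum count 10, minimum total 15) numbered 13285, and all 4 members passed. They were scaled by TMM (factors 0.950, 1.08, 0.924 and 1.05) and tested with edgeR 4.0.16 (R 4.3.3), quasi-likelihood, two-sided, group as the only term, with 2 residual degrees of freedom and Benjamini-Hochberg adjustment over all genes at 0.05. The SE given for an edgeR fold change is its absolute value divided by the square root of the test's F statistic. Centred log2 CPM used a prior count of 2 and a mean of at least 1. Ratios and shares were tested by exact permutation (scipy 1.17.1). Totals of 19631435, 35116830, 32463331 and 88596296 counts set the precision. The fits were run on simulated data, with and without a shift by replicate number. The variation drawn was that of a fit with a replicate block (common biological coefficient of variation 0.0552, against 0.245 in the main fit). Only the recovery of fold changes was required, so error rates in the present data are not shown by it. Members and lists were chosen with earlier results of these data known; genes named were the members, the 5 nearest in pattern to Tsc22d3 (3 for each relative), called or most changed list genes, direct partners, Nr3c1 and neighbours. Values of 2 genes that this rule names are not reported here. Coding sequence, lengths and strands came from GENCODE M21 (GRCm38) and promoters and gene order from RefSeq GRCm38.p6; since the counts rest on mm9, they were matched by gene only. Alternatives were DESeq2 size factors, upper quartile and library size scaling, 2 other filters, DESeq2 1.42.0, limma-voom (limma 3.58.1), the likelihood ratio test, a replicate block and leaving out each library.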

Additional observations from a re-analysis of the deposited data

How the results depend on the processing

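Across the alternatives the 4 members kept their direction in all 52 refits, 45 on the same side of the threshold and 7 newly past it, and the 3 ratios kept theirs in 18 of 18. Against 5 genes higher and 0 lower, every gene with a count gave 23 higher, DESeq2's Wald test 235 and 53, the likelihood ratio test 243 and 45, and limma-voom 0 higher (unadjusted p under 0.05: 540 up and 231 down). Of the list genes 1 was called; library size only gave 2, every gene with a count 4, DESeq2 and the likelihood ratio test 10 each and limma-voom 0 (14 at an unadjusted p under 0.05). Tsc22d3 was past the threshold with DESeq2 (2.70, adjusted p 4.08e-09) and with the likelihood ratio test (2.71, adjusted p 2.72e-06). With every gene with a count the median of the sodium transport list was 0.98 instead of 0.07, as Scnn1b entered it. The share of Tsc22d4, 0.317 percentage points higher with dexamethasone, was -0.414 per exonic kb and -0.00049 without dexamethasone replicate 2. The cause was not tested, apart from the genes added.

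The labels do not say that a replicate number marks a shared culture or day. The gap between the replicates was similar in the vehicle and dexamethasone groups over 13285 genes (Pearson r = 0.734; genes are not independent). In a fit that held replicate number as a block, 913 genes (6.87%) came out higher and 768 (5.78%) lower, 18 of them list genes, on 1 residual degree of freedom. Tsc22d3 was then at 2.75 (adjusted p 2.19e-05), Tsc22d2 at -0.61 (0.00139) and Tsc22d1 at -0.27 (0.0213), all past the threshold, and Tsc22d4 at 0.29 (0.0503) was not.

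Leaving out each library in turn assumes that the lone library of a group varies like the others. It gave 4 to 84 genes higher and 0 to 109 lower (both highest without vehicle replicate 2; without dexamethasone replicates 1 and 2 the genes higher were 24 and 28), and 2 to 6 list genes. Log2 fold changes ran from 2.30 to 3.30 for Tsc22d3, from -0.86 to -0.34 for Tsc22d2, from -0.43 to -0.09 for Tsc22d1 and from 0.23 to 0.38 for Tsc22d4. Tsc22d3 passed without vehicle replicate 2 (2.30, adjusted p 0.0254) and without dexamethasone replicate 2 (3.05, 0.0393). List medians ran from -0.0211 to 1.16 (sodium transport), -0.0341 to 0.19 (WNK and NRBP), -0.23 to 0.0442 (TGF-beta) and 1.79 to 2.01 (early targets). The share of Tsc22d4 ran from -0.00049 to 0.634 points. With 2 libraries a group, genes that did not pass are not shown to be unchanged.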

Other observations

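The genes closest in pattern to each relative were also listed, by the same distance over 4 libraries and among 10881 genes. For Tsc22d1 they were Patz1 (distance 0.0211), Sipa1l3 (0.0231) and Ncs1 (0.0324). For Tsc22d2 they were Brdt (0.0257), Steap3 (0.0877) and Popdc3 (0.0881). For Tsc22d4 they were Zrsr1 (0.0238), Dbf4 (0.0317) and A330023F24Rik (0.0391). These distances are smaller than the 0.107 between Tsc22d3 and Tent5b, for a reason that was not tested. Patz1 had a log2 fold change of -0.25 (SE 0.192), Brdt of -0.64 (SE 0.354) and Zrsr1 of 0.31 (SE 0.177), none past the edgeR threshold.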
